A study of Arabidopsis thaliana with 12 samples.

Results

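The genes described here are the cytochrome P450 genes of *Arabidopsis thaliana* that lie outside the core of glucosinolate synthesis. They were chosen by their description in the table. The deposited transcript table described 243 loci as cytochrome P450 and not as a reductase, and 8 loci, which hold CYP79, CYP83 and CYP81F2 enzymes of glucosinolate synthesis and the flavonoid hydroxylase CYP75B1, were left out. This gave 235 genes of the 33326 in the table. Of these, 26 had more than 1 transcript, and the one most abundant on average in WT was used. CYP names came from the table for 207 genes and from RefSeq for 17, while 11 had no CYP name and are given by locus. The named genes fell into 41 families, of which CYP71 with 49 genes and CYP705 with 24 were the largest. The rule also kept some genes close to glucosinolate synthesis, since CYP79A2, CYP79C1, CYP79C2, CYP81F3 and CYP81F4 met it. The CYP79 genes among them were too low to test, and CYP81F3 and CYP81F4 were called at neither time. P450 enzymes that the table describes by another name, such as allene oxide synthase, did not meet it.

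Cytochrome P450 enzymes are heme proteins that insert 1 oxygen atom of O2 into a substrate, with electrons that mostly come from NADPH through a P450 reductase and in part from cytochrome b5. Plants hold one of the largest sets of these genes, many of them in tandem arrays that arose by gene duplication. Their products make and break down hormones such as brassinosteroids, abscisic acid and jasmonate, build the cutin and wax of the leaf surface, hydroxylate sterols and carotenoids, and make defense compounds such as the indole phytoalexin camalexin.

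RNA was sequenced from WT (Col-0) and from *bou-2*, a Col-0 line whose *BOU* gene (At5g46800) carries a T-DNA in its second exon. *BOU* encodes a mitochondrial carrier needed for full glycine decarboxylase activity in photorespiration. All plants were grown for 35 days at 3000 ppm CO2 in 12 h of light and 12 h of dark and were then held in ambient CO2 for the last 24 h. Day samples were taken 2 h after and night samples 2 h before the onset of light according to the labels, with 3 libraries in each of the 4 groups (WT day, *bou-2* day, WT night, *bou-2* night). The labels name mature leaves, whereas the methods of the study name whole rosettes and other harvest times, and both the source and sampling-time fields of the day libraries read end of day against their titles. The mutant was represented by 1 insertion line, so an effect of *BOU* cannot be told apart from other features of that line. The series describes biological triplicates and does not say whether plants were pooled.

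Estimated counts summed to 15911356 to 33046562 per library. *BOU* itself was lower in *bou-2*, at 80.2 to 80.7 TPM (a level scaled for transcript length and library size) against 139 to 230 TPM in WT at day and at 65.2 to 67.0 against 153 to 176 TPM at night. The summed level of 6 leaf mesophyll markers ran from 24492 to 27405 TPM in *bou-2* and from 36234 to 46007 TPM in WT over both times. The markers are photosynthesis genes and differed by unlike amounts. At day the mean went from 1156 TPM in WT to 162 in *bou-2* for the antenna gene AT2G34430. For rubisco activase it went from 4438 to 3985 TPM. Root markers (9 genes) summed to 0.488 to 1.88 TPM and flower markers (7 genes) to 0.366 to 2.02 TPM per library. In whole tissue, fewer cells of a type and less RNA per cell cannot be told apart, and the part of the lower mesophyll markers in the results below was not tested.

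The 4 members whose response to the mutation differed between day and night are shown first by the DNA before their start. For each, the 200 bases before the annotated gene start are printed 5′ to 3′ on the gene's own strand (RefSeq, TAIR10.1). Capitals mark the W-box core TTGAC on either strand in the first 3. The core is only part of the site of WRKY factors, and the base after it was not matched. In CYP71B26 capitals mark the evening element AAATATCT, a clock motif, on either strand. The windows are chr3:9887717-9887916 (plus strand) for CYP71B15, chr2:13111989-13112188 (minus strand) for CYP71A13, chr2:14541618-14541817 (minus strand) for CYP710A1 and chr3:9634823-9635022 (minus strand) for CYP71B26.
CYP71B15: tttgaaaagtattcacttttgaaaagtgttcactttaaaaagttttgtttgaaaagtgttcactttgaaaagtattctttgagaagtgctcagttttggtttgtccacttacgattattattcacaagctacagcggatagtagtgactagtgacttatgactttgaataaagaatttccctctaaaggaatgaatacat
CYP71A13: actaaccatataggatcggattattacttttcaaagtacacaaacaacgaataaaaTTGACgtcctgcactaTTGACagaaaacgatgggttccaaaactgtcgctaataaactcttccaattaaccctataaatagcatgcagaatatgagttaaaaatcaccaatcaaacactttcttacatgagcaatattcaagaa
CYP710A1: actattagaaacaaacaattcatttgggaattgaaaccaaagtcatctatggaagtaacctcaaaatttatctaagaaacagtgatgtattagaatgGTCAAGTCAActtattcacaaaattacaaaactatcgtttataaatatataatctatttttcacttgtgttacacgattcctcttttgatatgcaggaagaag
CYP71B26: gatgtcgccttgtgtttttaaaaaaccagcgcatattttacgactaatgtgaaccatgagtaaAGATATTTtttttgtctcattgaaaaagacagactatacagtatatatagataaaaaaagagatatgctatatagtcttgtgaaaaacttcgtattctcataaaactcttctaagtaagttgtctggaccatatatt
The letters TTGAC were present 2 times in the window of CYP71A13, 2 times in that of CYP710A1 and 0 times in that of CYP71B15. Both copies in CYP710A1 read on the reverse strand. One copy in CYP71A13 is followed by G and so also holds TGACG, the core bound by TGA factors, and the other is followed by A. CYP71B26 had 1 evening element, read on the reverse strand, and 0 copies of TTGAC. The windows of CYP71B15, CYP71A13 and CYP710A1 held 0 evening elements. Which motif to mark was chosen gene by gene. Of 27443 windows of the same length before protein-coding genes, 38.7% held TTGAC and 3.91% held AAATATCT, and of the 235 windows of the P450 genes 43.8% and 3.4% did. A match is a run of letters and not a known binding site.

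Of the 235 genes, 130 had enough counts to be tested and 105 did not, 30 of them with no count in any library. The highest group mean among those not tested was 1.17 TPM. A mean of 10 TPM or more in some group was reached by 65 genes and a mean of 50 TPM or more by 20. The 10 most abundant genes, led by CYP72A15, CYP706A1, the brassinosteroid enzyme CYP90A1 and the carotene hydroxylase CYP97A3, held 37.1% of the summed level of the group, and the first 20 held 59.7%. Together the members took 0.193, 0.256 and 0.192% of all TPM in WT at day and 0.251, 0.246 and 0.277% in *bou-2* at day. At night the shares were 0.214, 0.199 and 0.232% in WT and 0.253, 0.251 and 0.267% in *bou-2*. The libraries of the genotypes overlapped at day, through WT replicate 2, and did not overlap at night.

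Changes are given as log2 fold changes from edgeR's quasi-likelihood test, with adjusted p-values by Benjamini-Hochberg over all 26153 transcripts tested. The test reports no standard error. The value after ± is an approximate one, the size of the change divided by the square root of the test's F value. The words "higher" or "lower" mean an adjusted p under 0.05. At day 20 of the 130 genes were higher and 19 lower in *bou-2*, where 14.8% and 12.8% of all 20458 genes tested were. At night 23 were higher and 18 lower, beside 14.8% and 12.2% of all genes. These shares, 15.4% and 14.6% at day and 17.7% and 13.8% at night, lay near those of all genes, and the shares of all genes apply to the counts of smaller lists below as well. Their median change was -0.15 at day and 0.02 at night, against -0.04 and 0.02 over all genes. At both times 9 genes were higher, 9 were lower and 3 (CYP71B15, CYP71B26 and CYP710A1) were lower at day and higher at night. The limma test on log2(TPM + 1) called 25 genes higher at each time, and 15 lower at day and 13 at night. On that scale the median of all genes moved by 0.11 at night. Without WT day replicate 2 the number higher at day was 28.

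**Figure D1:**
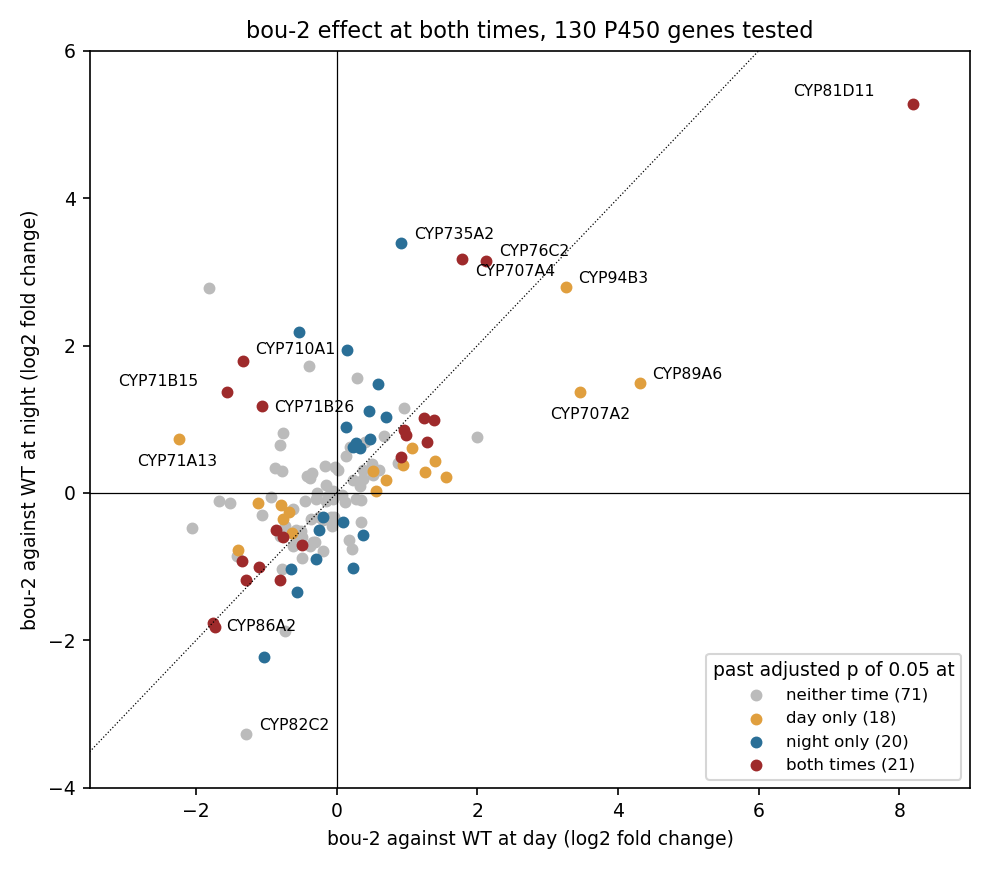
Log2 fold change of *bou-2* against WT at day (x axis) and at night (y axis) for the 130 P450 genes tested, with 1 point per gene, coloured by the time or times at which the adjusted p was under 0.05, and a dotted line of equal change. CYP81D11 stands at the upper right (8.20 and 5.28), CYP86A2 at the lower left (-1.75 and -1.77), and CYP71B15 at the upper left (-1.56 and 1.37).

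In 8 of the 41 named families the summed TPM was higher in *bou-2* without overlap at both times (CYP51, CYP72, CYP76, CYP79, CYP89, CYP94, CYP98 and CYP707). In 2 it was lower (CYP86 and CYP96). These sums were not tested, and how often sums of other genes lie apart was not counted. On log2(TPM + 1) the median of all genes was itself 0.05 higher in *bou-2* at day and 0.11 at night. In the test it was -0.04 and 0.02. The 41 include families with no gene tested. CYP79 is one of these, and its sum was low, at 0.162 TPM in WT and 0.714 in *bou-2* at day and 0.479 and 1.31 TPM at night. The 1 gene of CYP51 was called at neither time. In CYP98 1 of 3 tested genes was called at day and 0 at night. CYP72 went from 242 ± 51.9 TPM (SD, n = 3) in WT to 538 ± 44.5 in *bou-2* at day and from 256 ± 9.35 to 406 ± 16.6 at night. CYP89 went from 123 ± 19.9 to 282 ± 15.9 TPM at day and from 86.2 ± 9.92 to 175 ± 25.5 at night. CYP86 went the other way, from 180.1 ± 20.8 to 64.8 ± 6.12 TPM at day and from 137 ± 15.7 to 51.7 ± 1.5 at night. CYP86A2 held most of this sum, and of the 8 CYP86 genes tested 2 were lower at day and 3 at night. CYP96 followed with 65.6 ± 7.80 against 32.5 ± 4.02 TPM at day and 52.9 ± 14.5 against 20.5 ± 0.757 at night. CYP96A4 held most of its WT sum, and of the 4 CYP96 genes tested 2 were lower at day and 3 at night. Among families of lower summed level, CYP707 went from 7.41 ± 1.61 to 15.7 ± 2.43 TPM at day and from 6.84 ± 1.31 to 13.8 ± 1.44 at night. CYP76 went from 16.2 ± 3.46 to 29.9 ± 5.45 and from 15.8 ± 0.838 to 30.1 ± 1.47 TPM. Of the 4 CYP76 genes tested, only CYP76C2 was called. CYP94 went from 18.7 ± 2.65 to 38.5 ± 5.25 TPM at day and from 18.9 ± 0.279 to 29.4 ± 1.23 at night. The large CYP71 family, which held genes that moved in both directions, summed to 499.96 ± 139 TPM in WT and 501 ± 60.3 in *bou-2* at day. At night the WT sum was 512 ± 42.3 TPM and that of *bou-2* was 682 ± 68.3 TPM, with no overlap between the genotypes, while at day they overlapped. Of its 28 tested genes 3 were higher at day and 6 at night, and 8 were lower at day and 3 at night. CYP705, a family known for root-expressed genes, had 8 of 24 genes tested, of which CYP705A18 alone was lower at day.

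**Figure D2:**
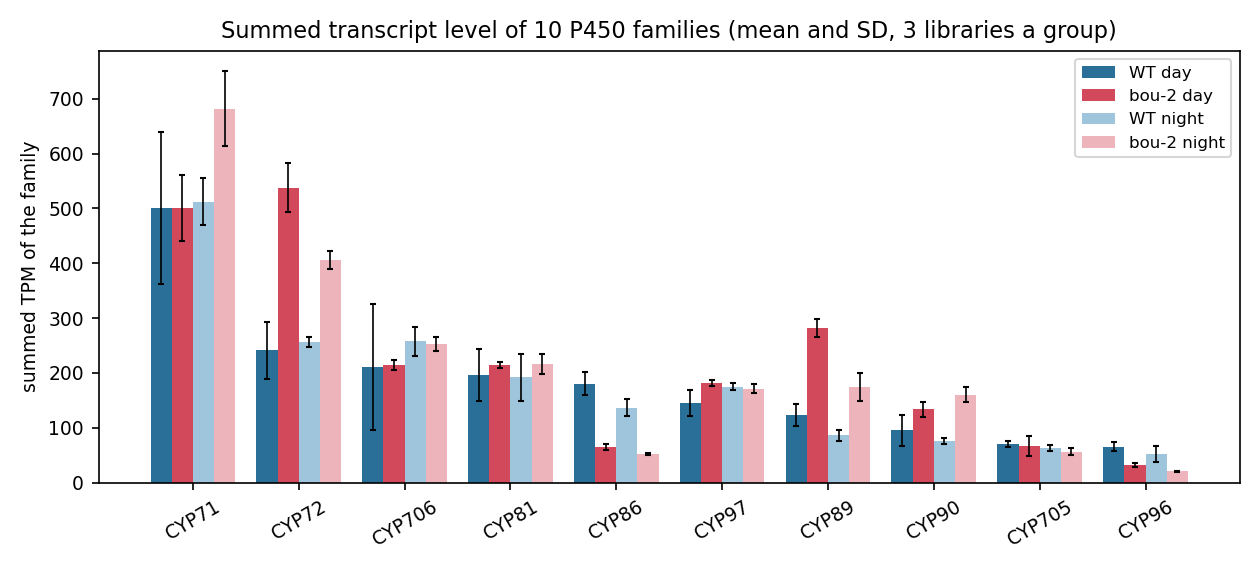
Summed TPM (y axis) of 10 P450 families (x axis) in the 4 groups, as bars of the mean of 3 libraries with the SD. CYP72 and CYP89 stand higher in *bou-2* than in WT at both times, and CYP86 and CYP96 stand lower.

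Of the 5 members listed for camalexin and indole defense, all tested, 2 (CYP71B15 and CYP71A13) differed in their response between day and night. In this list 1 gene was higher and 2 were lower at day, and 3 were higher at night. CYP71B15 (PAD3, AT3G26830), which carries out the last steps of camalexin synthesis, stood at 33.8, 76.5 and 29.2 TPM in WT and 20.8, 11.1 and 18.7 TPM in *bou-2* at day. At night it stood at 28.2, 29.0 and 52.4 TPM in WT and 92.6, 85.4 and 125 TPM in *bou-2*. The genotypes did not overlap at either time, with *bou-2* below WT at day and above it at night. The change was -1.56 ± 0.38 at day (adjusted p = 0.0132) and 1.37 ± 0.37 at night (adjusted p = 0.0215). The effect of the mutation at day minus that at night was -2.93 ± 0.53 (adjusted p = 0.0331). Within *bou-2*, CYP71B15 was lower at day than at night by -2.46 ± 0.39 (adjusted p = 0.00195), and in WT the difference of 0.47 ± 0.36 was not past the threshold (adjusted p = 0.515).

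CYP71A13 (AT2G30770, chr2:13109909-13111988), which forms the nitrile that camalexin is made from, stood at 14.6, 42.3 and 23.6 TPM in WT and 7.23, 3.87 and 7.48 TPM in *bou-2* at day. At night it stood at 15.2, 15.4 and 19.2 TPM in WT and 21.3, 25.1 and 42.3 TPM in *bou-2*. It was lower at day by -2.24 ± 0.40 (adjusted p = 0.00284), while the night change of 0.73 ± 0.37 was not past the threshold (adjusted p = 0.193), and its effect at day minus night was -2.97 ± 0.54 (adjusted p = 0.0368). The nearby gene CYP71A12, which feeds related indole compounds, was higher at night (1.94 ± 0.56, adjusted p = 0.0297), with 36.9, 9.88 and 11.7 TPM in *bou-2* against 3.20, 3.70 and 7.27 in WT. That call was lost when *bou-2* night replicate 1 or WT night replicate 1 or 2 was left out (adjusted p = 0.0988 to 0.145), with a change as low as 1.07. CYP71B6, which turns indole-3-acetonitrile into the carboxylic acid, was higher at both times (0.95 ± 0.20 and 0.86 ± 0.20, adjusted p = 0.00636 and 0.0103), with no overlap between the genotypes. CYP82C2, a hydroxylase of another indole pathway, was not past the threshold and had 13.0 TPM in WT day replicate 2 against 0.326 and 0.584 TPM in the other two WT day libraries. Of the 3 partner genes listed for camalexin, the glutathione transferase GSTF6 was higher at night (1.5, adjusted p = 0.00651), and WRKY33 (1.18, adjusted p = 0.101) and GGP1 (-0.52, adjusted p = 0.0741) were not past the threshold. CYP71A12 and CYP71A13 are close copies, and an error in how kallisto divides their shared reads was not tested.

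**Figure D3:**
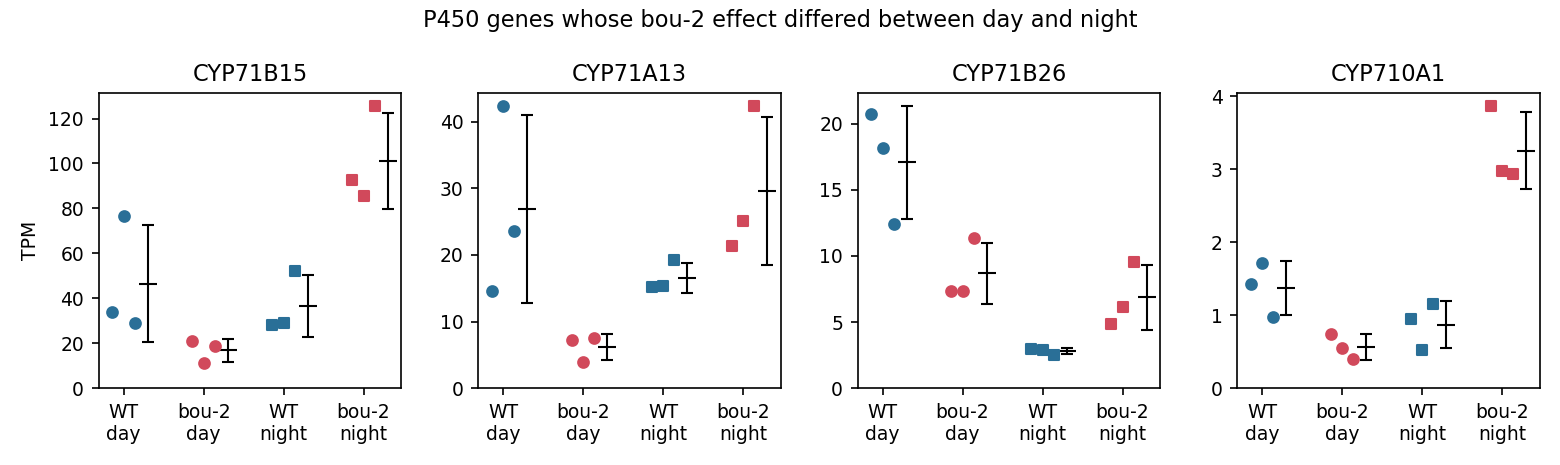
TPM (y axis, from 0) in each of the 12 libraries by group (x axis) for CYP71B15, CYP71A13, CYP71B26 and CYP710A1, with the mean and SD of 3 libraries beside each group of points. In all 4 genes the *bou-2* points lie below WT at day and above WT at night.

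CYP71B26 (AT3G26290), whose function is not known with certainty, followed the same order, with 20.7, 18.1 and 12.4 TPM in WT and 7.36, 7.38 and 11.3 TPM in *bou-2* at day. At night it had 2.98, 2.90 and 2.54 TPM in WT and 4.86, 6.15 and 9.58 TPM in *bou-2*. It was higher at day than at night in WT by 2.72 ± 0.27 (adjusted p = 0.000142) and by 0.47 ± 0.25 in *bou-2* (adjusted p = 0.259). Only these times were sampled, so the size of a daily swing was not measured. The effect at day minus night was -2.25 ± 0.36 (adjusted p = 0.0211). CYP710A1 (AT2G34500), a sterol C-22 desaturase, had 1.43, 1.72 and 0.971 TPM in WT and 0.748, 0.555 and 0.397 TPM in *bou-2* at day. At night it had 0.943, 0.517 and 1.15 TPM in WT and 3.87, 2.97 and 2.94 TPM in *bou-2*. Its effect at day minus night was -3.13 ± 0.48 (adjusted p = 0.0187), and its tandem neighbour and close relative CYP710A2 was called at neither time.

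In all, 4 of 130 genes had a lower effect of the mutation at day than at night, beside 0.645% of all genes. In the opposite direction 0 were called by edgeR, beside 0.538% of all genes, while DESeq2 called 6 and limma 2. At an unadjusted edgeR p under 0.05 the directions were nearly even, with 15 genes of lower and 12 of higher effect at day. The 4 calls were sensitive to single libraries, and 0 genes were called when WT night replicate 1 or replicate 2 of either *bou-2* group was left out. For CYP71B15 the adjusted p rose to between 0.0541 and 0.0949 without any 1 of 8 libraries, for CYP71A13 to between 0.0624 and 0.0975 without any 1 of 9, for CYP71B26 to between 0.0539 and 0.067 without any 1 of 5 and for CYP710A1 to between 0.0528 and 0.0633 without any 1 of 6. The CYP71B15 calls at single times were lost without *bou-2* day replicate 2 (adjusted p = 0.0559), and at night when *bou-2* replicate 3 or WT replicate 1 or 2 was left out (adjusted p = 0.0793 to 0.084). For CYP710A1 at day the call was lost without *bou-2* day replicate 2 or 3 (adjusted p = 0.0519 and 0.0669).

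Several P450 genes of cutin and wax families were lower in *bou-2*. CYP86A2 (ATT1, AT4G00360), a fatty acid omega-hydroxylase that makes cutin monomers, had 129, 185 and 144 TPM in WT and 51.8, 48.8 and 43.4 TPM in *bou-2* at day. At night it had 109, 95.2 and 122 TPM in WT and 35.3, 36.5 and 31.2 TPM in *bou-2*. The groups lay far apart, and the change was -1.75 ± 0.16 at day (adjusted p = 8.64e-05) and -1.77 ± 0.16 at night (adjusted p = 0.000103). CYP86A8 (LACERATA), a relative with the same chemistry, was lower by -1.10 ± 0.17 and -1.0 ± 0.17 (adjusted p = 0.00149 and 0.00248). CYP96A4 is of the family of the wax alkane hydroxylase CYP96A15, which was itself too low to be among the 4 CYP96 genes tested. CYP96A4 fell from 45.0, 55.1 and 33.9 TPM in WT to 17.5, 13.8 and 11.4 TPM at day. At night CYP96A4 fell from 33.7, 21.4 and 49.8 TPM to 9.77, 10.6 and 11.3 TPM. Its change was -1.73 ± 0.27 and -1.82 ± 0.27 (adjusted p = 0.00145 and 0.00118).

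CYP77A4, a fatty acid epoxygenase, was lower at day (-1.41 ± 0.29, adjusted p = 0.0062) and at -0.77 ± 0.29 at night it was not past the threshold. CYP96A12 was lower at day (-0.80 ± 0.20) and at night (-1.18 ± 0.21). CYP86A7 was lower at night (-1.03 ± 0.33, adjusted p = 0.0439). Its night call was lost without any 1 of 8 libraries (adjusted p up to 0.144), and the day call of CYP96A12 when *bou-2* replicate 2 or WT replicate 1 or 3 was left out (adjusted p = 0.0557 to 0.0742). CYP86A4 and CYP77A6, known for flower cutin, had changes of -0.63 and -0.50 at day and -0.71 and -0.88 at night that did not pass the test. CYP86A1, the omega-hydroxylase of root suberin, reached at most 1.07 TPM in a library. Among the 11 members listed for fatty acids, cutin, wax and suberin, which do not include CYP96A4 and CYP96A12, 7 were tested, 3 were lower at day and 3 at night, beside 12.8% and 12.2% of all genes, with median changes of -0.65 and -0.88. Of the 8 partner genes of this pathway, 4 were lower at day and 3 at night, among them the acyltransferases GPAT4 (-0.62 and -0.94), GPAT6 (-0.60 and -1.08) and GPAT8 (-1.53 and -1.36) at both times and the alkane-forming CER1 at day (-2.22).

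**Figure D4:**
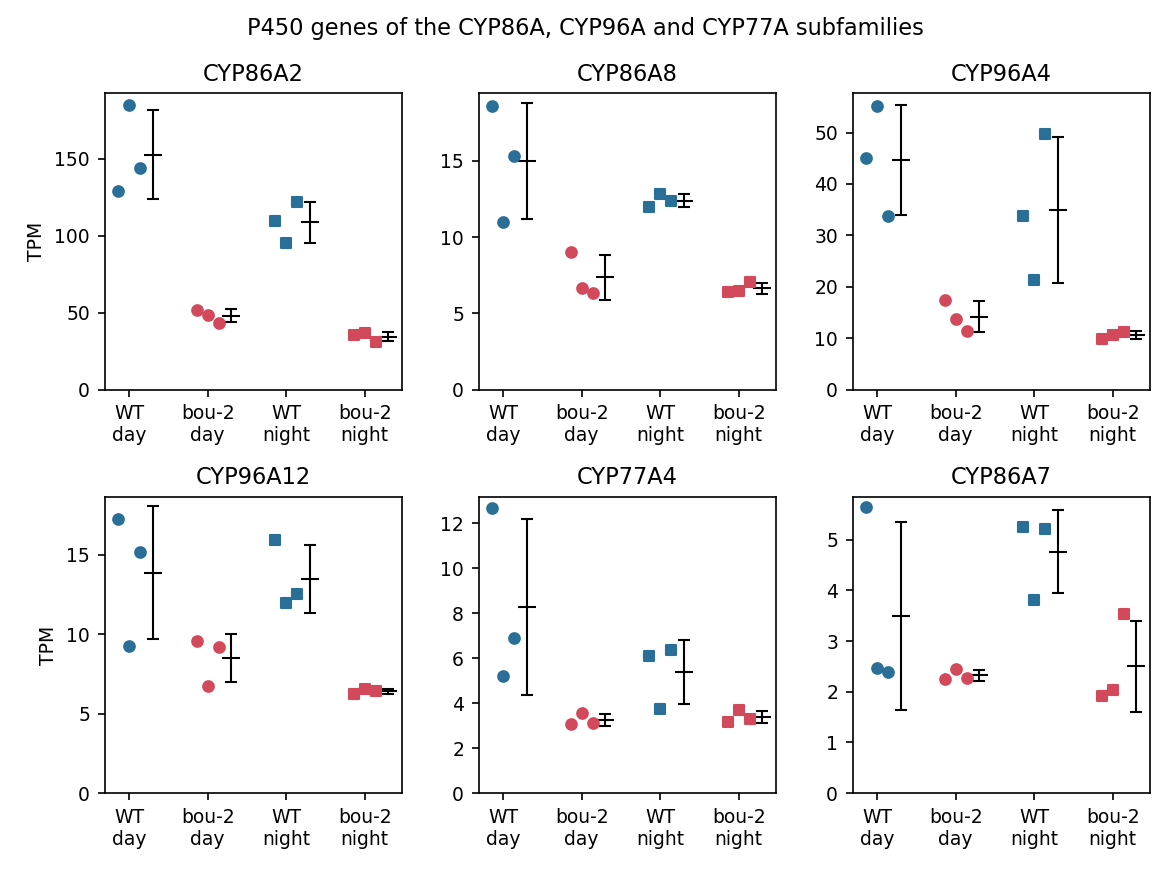
TPM (y axis, from 0) in each of the 12 libraries by group (x axis) for CYP86A2, CYP86A8, CYP96A4, CYP96A12, CYP77A4 and CYP86A7, with the mean and SD of 3 libraries beside the points. CYP86A2 lies between 95.2 and 185 TPM in WT and between 31.2 and 51.8 TPM in *bou-2*.

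Of the 8 CYP72 genes tested, most of which lie in a tandem array on chromosome 3, 3 were higher in *bou-2* at day and 2 at night. CYP72A15 (AT3G14690, chr3:4937172-4939871), the most abundant member, had 73.3, 80.4 and 92.0 TPM in WT and 205, 200.05 and 233 TPM in *bou-2* at day. At night it had 67.0, 65.3 and 69.8 TPM in WT and 114, 122 and 115 TPM in *bou-2*. It was higher by 1.28 ± 0.11 at day and 0.69 ± 0.11 at night (adjusted p = 8.64e-05 and 0.0018). CYP72A13 and CYP72A11, which lie side by side in the array, were higher at day by 1.26 ± 0.15 and 0.70 ± 0.13 (adjusted p = 0.000292 and 0.00332), and their night changes of 0.28 and 0.17 did not pass the test. In CYP72A13 the effect at day minus night was 0.98 ± 0.21 (adjusted p = 0.0565). CYP72A7, at 1.45 to 3.10 TPM over all libraries, was higher at night (0.61 ± 0.20, adjusted p = 0.0448). Whether that call holds without single libraries was not examined. CYP72A8, the other abundant gene of the array, had 19.6, 80.7 and 22.2 TPM in WT at day and was called at neither time, WT replicate 2 lying within the *bou-2* range of 79.3 to 94.0 TPM.

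CYP89A genes in an array on chromosome 1 were higher as well. CYP89A5 (AT1G64950, chr1:24127506-24129557) had 41.5, 48.6 and 45.1 TPM in WT and 113, 127 and 136 TPM in *bou-2* at day, a change of 1.39 ± 0.12 (adjusted p = 6.93e-05). At night it had 25.5, 25.4 and 25.7 TPM in WT and 48.1, 56.9 and 58.2 TPM in *bou-2* (0.99 ± 0.12, adjusted p = 0.00037). CYP89A2 was higher at both times (0.99 ± 0.18 and 0.79 ± 0.18), and its night call was lost without *bou-2* night replicate 3 (adjusted p = 0.0521). CYP89A6, next to CYP89A5, had 0.169, 0.089 and 0.146 TPM in WT and 3.53, 2.05 and 3.15 TPM in *bou-2* at day (4.31 ± 0.52, adjusted p = 0.000354). CYP89A9, which lies elsewhere in the genome and oxidises the breakdown products of chlorophyll, was higher at night, with 40.2, 49.7 and 55.8 TPM against 23.3, 17.4 and 25.4 TPM in WT. Its change was 1.04 ± 0.24 at night (adjusted p = 0.0117, up to 0.0529 when WT replicate 2 or *bou-2* replicate 3 was left out) and 0.71 ± 0.24 at day (adjusted p = 0.0581). Of 5 partner genes of chlorophyll breakdown, 3 were higher at day (NYC1 by 1.43, SGR1 by 0.77 and PAO by 0.65) and 2 at night (NYC1 by 0.73 and PAO by 0.60).

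**Figure D5:**
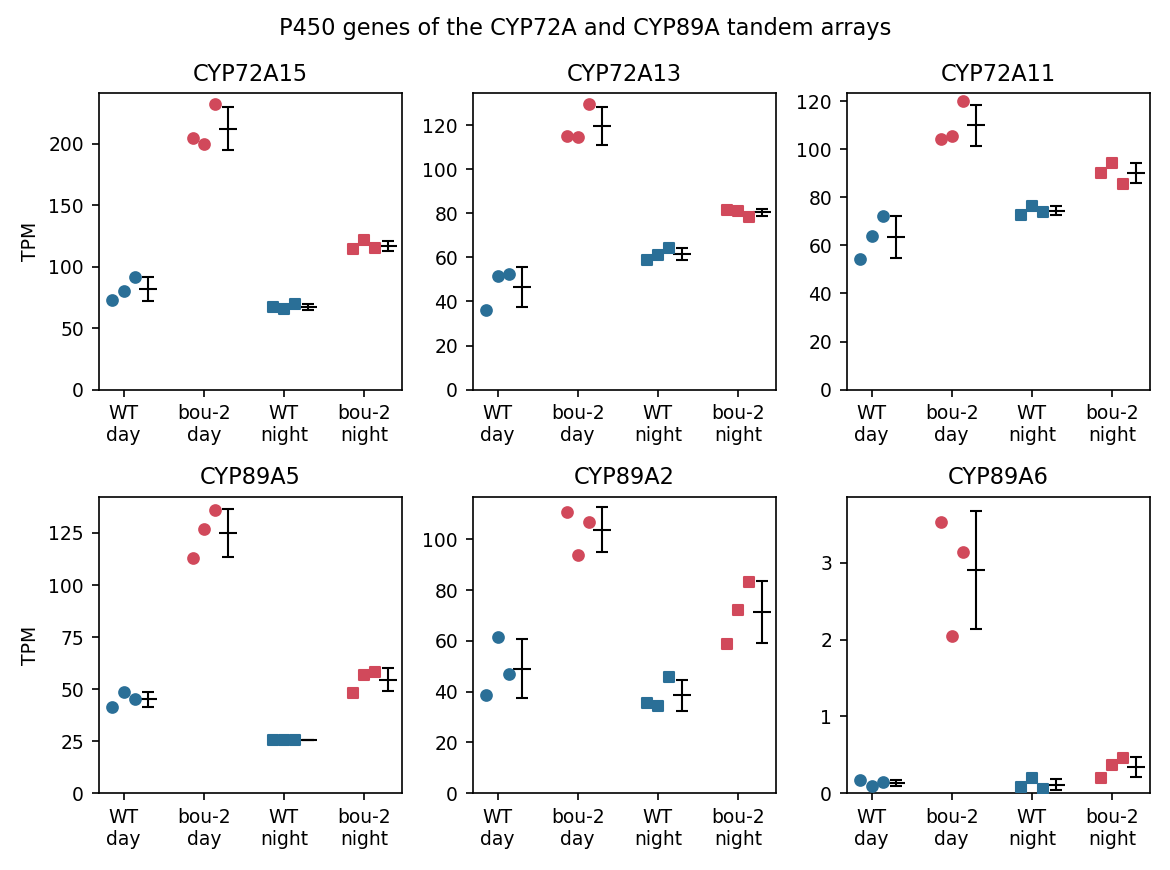
TPM (y axis, from 0) in each of the 12 libraries by group (x axis) for 3 CYP72A genes and 3 CYP89A genes, with the mean and SD of 3 libraries beside the points. CYP72A15 and CYP89A5 lie higher in *bou-2* than in WT at both times, and CYP89A6 lies above 2 TPM only in *bou-2* at day.

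In the RefSeq gene order 114 members stood directly next to another member, in 73 neighbouring pairs, of which 30 had both genes tested. At day both genes were higher in 2 pairs (CYP72A11 with CYP72A13 and CYP89A5 with CYP89A6), both were lower in 1 pair (CYP71B12 with CYP71B13), the calls were opposite in 1 pair, and in 15 pairs 1 gene was called. The opposite pair was CYP71B35, lower by -0.49 ± 0.12, and CYP71B36, higher by 1.39 ± 0.34. The day call of CYP71B13 was lost without any 1 of 4 libraries (adjusted p up to 0.0889). At night 1 gene was called in 15 pairs and neither in the other 15, and no pair had calls in both genes. How often neighbouring pairs of other genes are called was not counted, so these counts do not show whether neighbours move together. Many neighbours are close copies, and how kallisto divided the reads they share was not tested.

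The largest change of any member was that of CYP81D11 (AT3G28740), a gene known as a marker of the response to xenobiotics and reactive oxylipins. Its 3 WT libraries held 3, 4 and 0 counts at day and 0, 0 and 3 counts at night. In *bou-2* it stood at 16.6, 21.7 and 21.7 TPM at day and 1.72, 1.70 and 1.21 TPM at night. The *bou-2* to WT ratio of pooled counts, scaled to library size, was 338 at day (95% exact binomial interval 164 to 842) and 45.4 at night (15.3 to 223), intervals that cover counting error only. The test gave 8.20 ± 0.57 and 5.28 ± 0.67 (adjusted p = 2.07e-05 and 0.000529). Within *bou-2* it was higher at day than at night by 3.83 ± 0.41 (adjusted p = 0.000163). CYP81D8, another gene of the same subfamily, had 53.1, 15.6 and 16.9 TPM in *bou-2* at night against 4.32, 3.47 and 16.4 in WT, and at 1.72 ± 0.66 it was not past the threshold (adjusted p = 0.0877).

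Other members that were higher at both times were CYP76C2, CYP71A22, CYP94D2 (0.92 and 0.49) and CYP707A4. CYP76C2, an oxidase of monoterpenols also known from dying leaf tissue, had 5.64, 5.61 and 0.487 TPM in WT and 15.5, 15.8 and 22 TPM in *bou-2* at day, and 1.76, 1.52 and 1.28 against 17.1, 14.3 and 12.2 TPM at night. It rose by 2.13 ± 0.57 at day (adjusted p = 0.0209, 0.0629 without *bou-2* day replicate 3) and 3.15 ± 0.62 at night (adjusted p = 0.00453). CYP71A22 was between 14.2 and 25.4 TPM in all 6 WT libraries and between 45.2 and 50.4 TPM in all 6 *bou-2* libraries (1.24 ± 0.18 and 1.01 ± 0.18). CYP706A5 was higher at day only by call (1.08 ± 0.22, adjusted p = 0.00565, against 0.61 ± 0.22 at night), and the difference between the times of 0.46 ± 0.30 was not past the threshold. Its night change was called in 7 of the alternatives named below, among them DESeq2 and limma. CYP71B23 was higher at night (1.48 ± 0.47, adjusted p = 0.0421), a call lost without any 1 of 9 libraries (adjusted p up to 0.138).

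Members that were lower at both times, beside CYP86A2, CYP86A8, CYP96A4 and CYP96A12, were CYP81K2, CYP71B2, CYP71B29, CYP71B35 and CYP707A3. CYP81K2 had 11.7, 7.76 and 8.90 TPM in WT and 3.82, 3.82 and 4.68 TPM in *bou-2* at day and 11.9, 10.2 and 12.7 against 5.81, 5.86 and 4.87 TPM at night (-1.29 ± 0.15 and -1.18 ± 0.15). The nearby gene CYP81K1 was higher at night (0.68 ± 0.13, adjusted p = 0.00487). CYP71B2 was lower by -0.86 ± 0.11 and -0.50 ± 0.10, and CYP71B29 by -0.76 ± 0.17 and -0.59 ± 0.16, the latter lost without any 1 of 5 libraries (adjusted p up to 0.0769). CYP71B12 was lower at day (-1.11 ± 0.17, adjusted p = 0.00136) and at -0.13 ± 0.17 at night was not called. At night CYP81D4 (-0.50 ± 0.14, adjusted p = 0.0291, up to 0.0995 without any 1 of 5 libraries) and AT3G44970 (-1.34 ± 0.29, adjusted p = 0.00728) were lower.

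Within hormone pathways, members were called in both directions. Of the 4 abscisic acid 8′-hydroxylases, which start the breakdown of that hormone, CYP707A4 was higher at both times, from 1.06, 0.902 and 0.822 to 3.90, 3.60 and 2.59 TPM at day and from 0.176, 0.352 and 0.214 to 2.65, 2.30 and 2.32 TPM at night. Its change was 1.78 ± 0.28 and 3.17 ± 0.31 (adjusted p = 0.00136 and 0.000159). CYP707A3 went down, from 3.06, 2.26 and 1.95 to 0.911, 1.07 and 1.02 TPM at day (-1.34 ± 0.26, adjusted p = 0.00432) and by -0.93 ± 0.26 at night (adjusted p = 0.0257), where the call was lost without any 1 of 3 libraries (WT replicate 3 and *bou-2* replicates 1 and 2 of the night, adjusted p = 0.0828 to 0.0945). CYP707A2 was higher at day (3.46 ± 0.91, adjusted p = 0.0192), with 1.93, 6.30 and 8.48 TPM against 0.396, 0 and 0.960 TPM, and lost the call when *bou-2* replicate 2 or 3 or WT replicate 1 was left out (adjusted p = 0.0533 to 0.0607). CYP707A1 was called at neither time (0.60 and 0.31). Of 7 genes of abscisic acid synthesis, 6 of them tested, ABA2 was lower at both times (-0.77 and -0.73) and AAO3 was higher at night (0.58).

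Brassinosteroid enzymes differed likewise. CYP90A1 (CPD), a synthesis enzyme, had 59.5, 63.3 and 69.2 TPM in WT and 155, 157 and 133 TPM in *bou-2* at night (1.11 ± 0.16, adjusted p = 0.00098). At day the WT libraries stood at 110.1, 65.2 and 64.1 TPM and those of *bou-2* at 114, 105 and 128 TPM (0.45 ± 0.16, adjusted p = 0.061). CYP90C1 (ROTUNDIFOLIA3), a C-23 hydroxylase, was higher at night (0.73 ± 0.18, adjusted p = 0.0152) and CYP90D1, which shares that reaction, was lower (-1.02 ± 0.24, adjusted p = 0.0127). Both calls were close to the threshold, at adjusted p up to 0.0626 for CYP90C1 when *bou-2* replicate 3 or WT replicate 2 or 3 was left out, and up to 0.0527 for CYP90D1 without replicate 3 of either night group. CYP90B1 (DWF4), the C-22 hydroxylase, was lower at day (-0.77 ± 0.24, adjusted p = 0.0387, up to 0.137 without any 1 of 7 libraries). CYP734A1 (BAS1), which inactivates brassinosteroids, was lower at night, from 2.97, 3.36 and 2.86 to 2.08, 1.54 and 1.71 TPM (-0.89 ± 0.20, adjusted p = 0.00981). Of 5 partner genes, DWF1 was lower at both times (-0.67 and -0.90), and the receptor BRI1 (0.58) and the transcription factor BZR1 (0.35) were higher at day.

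Of the members listed for jasmonate (3 tested), cytokinin and strigolactone (2 tested) and gibberellin metabolism (1 tested), 1 was higher at day and 1 at night, beside 14.8% of all genes at each time. CYP94B3, which oxidises the active jasmonate conjugate, was higher at day (3.26 ± 0.89, adjusted p = 0.023), but its *bou-2* libraries held 0.627, 7.29 and 0.735 TPM and the call was lost without replicate 2 of that group or without WT replicate 1 or 3 (adjusted p = 0.0632 to 0.200), with a change as low as 1.04. CYP735A2, a cytokinin hydroxylase, was higher at night (3.39 ± 0.91, adjusted p = 0.0215), at 2.04, 1.74 and 0.852 TPM against 0.205, 0.205 and 0 TPM. That call was lost when *bou-2* replicate 1 or 2 or WT replicate 1 was left out (adjusted p = 0.0502 to 0.074). CYP72C1 of brassinosteroid inactivation, CYP94B1 and CYP94C1 of jasmonate turnover, CYP76C1 and CYP82G1 of volatile terpene synthesis, the strigolactone enzyme CYP711A1 and the gibberellin enzyme CYP88A3 did not pass the test at either time. Of 7 gibberellin partner genes tested, GA2 (-1.91 and -0.66) and GA2OX1 (-2.46 and -1.90) were lower at both times.

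The lists of carotenoid, sterol and phenylpropanoid synthesis held 3, 3 and 1 tested members. In the first, 1 was higher at day and 1 lower at night, in the second CYP710A1, described above, was called at both times, and in the third the 1 gene was called at neither time. The carotene hydroxylase CYP97A3 (LUT5) was higher at day, at 109, 109 and 114 TPM against 69.0, 60.5 and 81.6 TPM (0.57 ± 0.13, adjusted p = 0.0094). At night the difference was 0.03 ± 0.13. CYP97C1 (LUT1) was lower at night by -0.39 ± 0.13 (adjusted p = 0.0481), a call lost without any 1 of 9 libraries (adjusted p up to 0.122), and CYP97B3 was called at neither time. The sterol 14-demethylase CYP51G1 ran from 48.8 to 71.9 TPM over all libraries (0.23 ± 0.08 and 0.18 ± 0.08, adjusted p = 0.0649 and 0.142). CYP98A3, the hydroxylase on the way to lignin and coumarins, ran from 22.9 to 48.6 TPM (0.33 ± 0.12 and 0.15 ± 0.12, adjusted p = 0.0768 and 0.422). The organ growth genes of the CYP78A group, CYP78A5 to CYP78A9, were called at neither time, though CYP78A6 was higher at day than at night in *bou-2* (0.92 ± 0.26, adjusted p = 0.0399, up to 0.127 without any 1 of 7 libraries). CYP82C4, an enzyme of the iron-deficiency coumarin sideretin, had no count in any library. The 4 members of the root triterpene clusters were too low to test.

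The redox partners of P450 enzymes and their scaffold proteins formed a list of 9 genes, all tested. The P450 reductases ATR1 (-0.16 and -0.01) and ATR2 (-0.36 and -0.49) did not pass the test at either time. Of the cytochrome b5 genes, CB5-B (-0.65 and -0.67) and CB5-D (-0.50 and -0.37) were lower at both times and CB5-C at night (-1.35). The night call of CB5-D lay just inside the threshold (adjusted p = 0.0497). Over the whole list of 71 partner genes 65 were tested, of which 6 were higher at day and 4 at night, and 14 were lower at each time, beside 14.8% of all genes higher at each time and 12.8% and 12.2% lower.

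In WT 12 of the 130 P450 genes were higher at day than at night, beside 5.58% of all genes, and 1 was lower, beside 3.88%. In *bou-2* 18 were higher and 8 lower, beside 7.68% and 7.69% of all genes. The lower gene in WT was CYP734A1 (-1.28 ± 0.21, adjusted p = 0.00314), and 8 genes were lower in WT when day replicate 2 was left out and 4 when day replicate 3 was. The largest rise at day in WT was that of AT1G66540, a P450 gene without a CYP name, at 9.31, 8.43 and 8.21 TPM at day and 1.40, 1.73 and 1.14 TPM at night (2.73 ± 0.16, adjusted p = 3.28e-06). In *bou-2* it had 9.68, 9.71 and 10.8 TPM at day and 3.0, 2.86 and 2.66 TPM at night (1.96 ± 0.15, adjusted p = 1.91e-05), and at night it was higher than in WT (0.90 ± 0.16). CYP90C1 was higher at day in both genotypes (1.28 ± 0.18 in WT and 1.03 ± 0.18 in *bou-2*), as was CYP89A5 (0.95 ± 0.12 and 1.34 ± 0.12).

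CYP71B13 was higher at day in WT (1.14 ± 0.22, adjusted p = 0.00934, 0.0503 without WT night replicate 1), with 46.0, 35.9 and 20.9 TPM at day against 16.0, 17.1 and 17.2 TPM at night. CYP96A1 was higher at day in *bou-2* by 1.79 ± 0.15 (9.64, 8.22 and 10.5 against 3.30, 2.72 and 2.96 TPM, adjusted p = 2.87e-05) and in WT by 0.84 ± 0.14 (adjusted p = 0.00449). The difference between the genotypes in this change from night to day was 0.95 ± 0.20 (adjusted p = 0.0609). Among genes lower at day in *bou-2*, after CYP71B15 and CYP71A13, were CYP81D8 (-2.37 ± 0.69, adjusted p = 0.0447), CYP71B12 (-0.81 ± 0.17, adjusted p = 0.0111) and CYP71B24 (-0.72 ± 0.20, adjusted p = 0.035). All 3 calls were lost without single libraries, CYP81D8 without any 1 of 7 (adjusted p up to 0.188), CYP71B12 without *bou-2* day replicate 2 or *bou-2* night replicate 3 (adjusted p up to 0.0561) and CYP71B24 without any 1 of 7 (adjusted p up to 0.144).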

How the data were processed

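RNA of 12 libraries, 3 in each of 4 groups, was analysed from 1 deposited table of 41392 transcripts (23 repeated lines were dropped). The authors quantified paired reads with kallisto 0.43.0 against the TAIR10 transcriptome, and the deposited estimated counts carry no normalization. The deposited TPM values also come from kallisto, scaled for transcript length and library size. The deposited table also holds the authors' SD of TPM (a signal per group), log2 ratios and q-values of their sleuth 0.28.1 comparisons, none of which was used. The submitters' processing notes also name CASAVA.

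The estimated counts, rounded to whole numbers, entered edgeR 4.0.16 under R 4.3.3 (TMM, filterByExpr with a minimum count of 10, total of 15 and proportion of 0.7), with 1 mean per group over all 12 libraries. This left 26153 transcripts and 20458 genes. Calls rest on the primary transcript of each gene, at a Benjamini-Hochberg adjusted p below 0.05. The common dispersion of 0.0807 gives a coefficient of variation of 28.4%. P-values reflect only how far these libraries vary. Scripts were tested on simulated data. Alternatives were DESeq2 1.42.0, limma 3.58.1 on log2(TPM + 1) and log2(TPM + 0.1), DESeq2 size factors, no filter, counts summed per gene, fits of only the libraries compared, an adjusted p of 0.01, a replicate block and leaving out each library.

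The members, the lists of roles and partner genes and the rules were chosen with earlier results of these data known. Genes were named if they ranked among the 10 largest called rises or falls at a time (mean of at least 5 TPM, libraries not overlapping), had a listed role and at least 1 TPM, differed between the times, or ranked among the 5 largest called day to night changes (at least 5 TPM). Genes named outside this rule (CYP72A7, CYP72A8, CYP72A11, CYP81F3, CYP81F4, CYP81K1, CYP82C4, CYP86A1, CYP89A6, CYP94D2, CYP96A15, CYP705A18, CYP706A1 and 3 CYP79 genes) were chosen after their values were seen. All 235 members matched a RefSeq locus. Coordinates are those of TAIR10.1.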

Additional observations from a re-analysis of the deposited data

Results flagged for a closer look

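In 4 P450 genes the effect of the mutation differed between day and night by a test of the difference itself (edgeR quasi-likelihood, adjusted p by Benjamini-Hochberg), and in each the 3 *bou-2* libraries lay below the 3 WT libraries at day and above them at night. The log2 effect at day minus that at night was -2.93 in CYP71B15 (PAD3, camalexin synthesis), -2.97 in CYP71A13 (camalexin synthesis), -2.25 in CYP71B26 and -3.13 in CYP710A1 (sterol C-22 desaturation). CYP710A1 stayed under 4 TPM in every library. WT day replicate 2 had the highest WT day level of the first 2 genes and of CYP710A1. The 4 calls are at adjusted p from 0.0187 to 0.0368, and single libraries end them.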

How the results depend on the processing

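Results were recomputed under 21 alternatives, except that the difference between the times could not be had from fits of only the libraries compared. No called result of a gene named by the rule turned its direction in them. Results of single genes named outside the rule and of partner genes were not compared across the alternatives. With DESeq2 size factors 1 gene had a higher effect at day than at night, where the reported count is 0. With the DESeq2 Wald test that count was 6, and 2 genes were lower at day in WT. With counts summed per gene both counts were 2. With limma on log2(TPM + 1) 2 genes had a higher effect at day and 4 were lower at day in WT. With limma on log2(TPM + 0.1) the same counts were 2 and 4, 7 genes were higher at day in WT and 11 in *bou-2*, and 1 gene had a lower effect at day. Fits of only the libraries compared gave 10 genes lower in *bou-2* at day, 30 lower at night and 4 higher at day in WT. At an adjusted p of 0.01 there were 10 genes lower in *bou-2* at day, 12 higher and 9 lower at night, 7 higher at day in WT, 10 higher and 3 lower at day in *bou-2*, and 0 with a lower effect at day. The cause of these shifts was not tested, apart from the stricter threshold.

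Without single libraries the genes higher in *bou-2* numbered 17 to 28 at day and 15 to 27 at night, and those lower 14 to 22 and 11 to 23. In WT 6 to 13 were higher and 1 to 8 lower at day than at night, and in *bou-2* 11 to 21 and 3 to 10. For the difference of the effect, 0 to 7 were higher and 0 to 8 lower. Shifts of over 1.5 times came from these libraries. WT day replicate 2 moved the genes lower at day in WT to 8 and replicate 3 to 4. Without WT night replicate 1, 2 or 3 the genes higher at day in WT were 6, 7 and 7. Genes higher at night in *bou-2* were 15 without *bou-2* night replicate 3, and those lower were 11 without *bou-2* night replicate 2 or 3 or WT night replicate 3. In *bou-2*, 11 were higher at day without day or night replicate 2, and 3 to 5 were lower without day replicate 2 or 3 or any night replicate. For the difference, 2, 2 and 7 were higher without WT day replicates 1, 2 and 3, 8 were lower without WT day replicate 3, and 0 to 2 were lower without any 1 library of the other groups.

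Same-numbered libraries did not deviate together (r of deviations from -0.121 to 0.067), so the numbers were not taken as pairs. With the replicate block 7 genes were higher at day in WT and 1 had a lower effect at day, and 17 of 330 gene results lost their call while 1 gained one. With 3 libraries per group, small changes are limited by the spread between libraries, and genes under about 1 TPM by their counts.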
